A study of Homo sapiens with 4 samples.

Results

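The sequence on both sides of the chromosome 7 centromere was examined as 2 stretches of hg19, chr7:56400054-58049909 on the short arm (7p11.2) and chr7:61900006-63399770 on the long arm (7q11.21), where the limits of stretches, blocks and bins are given here as their first and last CpG. Its members were the 31986 CpGs listed there, 18528 on the short arm and 13458 on the long arm, out of 27710999 CpGs on the autosomes and X. The limits were drawn around a large rise of methylation in knockout libraries, so the differences between groups given for these stretches chose them and are a description without a test. Methylation was read out by EM-seq, an enzymatic counterpart of bisulfite sequencing that turns unmethylated but not methylated cytosines into bases sequenced as T. HEK293T cells, which derive from human embryonic kidney, were used as wild type (WT) or with a homozygous deletion of ZNF274 (ZNF274KO), with 2 libraries of each. For the knockout, Cas9 and a pair of guides on either side of the gene were transfected, cells were selected with puromycin and single cells were sorted, so a knockout line descends from 1 cell. The labels number the libraries but do not say whether they came from separate cultures or clones, and spread between libraries may therefore be technical.

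Pericentromeric DNA is rich in satellite repeats, segmental duplications and pseudogenes, and is usually packed as heterochromatin marked by H3K9me3. Many genes of the C2H2 zinc finger family, whose proteins bind DNA through tandem fingers and often carry a KRAB repressor domain, lie in clusters within such chromatin. ZNF274 is itself a KRAB zinc finger protein that binds the finger-coding exons of other zinc finger genes and recruits the machinery that deposits H3K9me3. DNA methylation marks most CpGs of the human genome, spares most active CpG island promoters, and in many cultured lines is low over long gene-poor domains.

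The 2 protein-coding genes of the stretches, ZNF479 and ZNF716, differ in CpG content at the start. Their upstream sequences are shown because the levels within 1 kb of their starts differed. In all sequences printed here capitals mark CpGs and the letters run 5′ to 3′ on the stated strand of GRCh37, the build of the files. The first line is the minus strand of chr7:57207572-57207821, the 250 bases before the transcription start of ZNF479, and holds 0 CpGs. The second is the plus strand of chr7:57509633-57509882, the 250 bases before the start of ZNF716, and holds 6. The remaining pair are the 240 bases richest in CpGs in the finger-coding last exon of each gene, chr7:57188074-57188313 (minus strand) and chr7:57528524-57528763 (plus strand), with 3 CpGs each.
ZNF479 upstream: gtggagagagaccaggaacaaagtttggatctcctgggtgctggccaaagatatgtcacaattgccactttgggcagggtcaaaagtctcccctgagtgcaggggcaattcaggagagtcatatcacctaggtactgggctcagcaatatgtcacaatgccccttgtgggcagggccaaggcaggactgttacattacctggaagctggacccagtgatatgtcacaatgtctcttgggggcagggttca
ZNF716 upstream: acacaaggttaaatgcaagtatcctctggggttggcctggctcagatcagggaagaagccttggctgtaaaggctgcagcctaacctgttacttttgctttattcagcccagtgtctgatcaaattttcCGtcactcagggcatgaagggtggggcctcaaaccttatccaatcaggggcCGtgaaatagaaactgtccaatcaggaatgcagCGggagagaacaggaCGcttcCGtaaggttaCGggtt
ZNF479 coding exon: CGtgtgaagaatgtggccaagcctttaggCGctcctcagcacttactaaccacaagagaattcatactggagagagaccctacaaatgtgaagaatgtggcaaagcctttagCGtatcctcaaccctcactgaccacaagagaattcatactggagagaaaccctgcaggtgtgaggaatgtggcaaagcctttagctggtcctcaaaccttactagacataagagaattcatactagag
ZNF716 coding exon: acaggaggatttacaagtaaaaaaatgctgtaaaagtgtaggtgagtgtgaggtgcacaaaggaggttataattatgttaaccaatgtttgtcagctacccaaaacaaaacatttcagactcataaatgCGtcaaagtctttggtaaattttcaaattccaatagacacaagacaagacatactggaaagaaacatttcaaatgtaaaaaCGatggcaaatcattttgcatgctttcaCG

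The next sequences stand for other kinds of DNA in the stretches, each on the plus strand. MTCYBP29 is a nuclear copy of the mitochondrial cytochrome b gene at chr7:57241160-57241359. The rise there was large at CpGs whose sequence occurs once on the autosomes and X, though the mitochondrial genome was not searched. The island at the start of the noncoding RNA ENSG00000236299, which lies within the noncoding RNA LINC02848 and is shown as its 240 bases richest in CpGs (chr7:63361126-63361365), had lower levels in ZNF274KO. The last sequences are satellite DNA. Of the GGAAT array, chr7:57552576-57552775 is shown. Over the printed bases the array was at 41.4% and 35.3% in WT and at 16.9% and 33.7% in ZNF274KO. Reads summed over the 15 printed CpGs numbered 89 to 181 per library. The whole tile of the array, described later, had overlapping groups. The last, chr7:61968954-61969173, is part of a satellite at the edge of an assembly gap that drew most reads of the long arm.
MTCYBP29: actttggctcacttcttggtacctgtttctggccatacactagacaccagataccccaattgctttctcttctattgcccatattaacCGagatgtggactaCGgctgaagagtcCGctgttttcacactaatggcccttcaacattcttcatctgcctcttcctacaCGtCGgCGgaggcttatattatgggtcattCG
ENSG00000236299 start island: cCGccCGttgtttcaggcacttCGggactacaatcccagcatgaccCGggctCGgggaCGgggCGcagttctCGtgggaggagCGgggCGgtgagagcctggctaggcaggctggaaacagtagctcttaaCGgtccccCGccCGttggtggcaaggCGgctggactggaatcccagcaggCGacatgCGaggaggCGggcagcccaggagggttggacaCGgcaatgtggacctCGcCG
GGAAT array: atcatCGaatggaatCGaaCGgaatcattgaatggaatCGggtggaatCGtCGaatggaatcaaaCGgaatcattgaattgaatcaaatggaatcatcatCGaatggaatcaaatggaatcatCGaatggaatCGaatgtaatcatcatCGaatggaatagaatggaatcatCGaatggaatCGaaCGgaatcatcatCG
Gap-edge satellite: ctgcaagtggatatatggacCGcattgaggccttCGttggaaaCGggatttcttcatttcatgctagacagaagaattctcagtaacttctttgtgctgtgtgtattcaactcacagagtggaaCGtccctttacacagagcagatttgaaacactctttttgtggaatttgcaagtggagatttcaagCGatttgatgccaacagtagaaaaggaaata

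Calls of C or T at CpGs of the autosomes and X numbered 295114493 (WT 1), 254506473 (WT 2), 275297053 (ZNF274KO 1) and 241598512 (ZNF274KO 2). The median was 10, 9, 9 and 8 reads per CpG in the same order. Reads of a region are counted throughout as such calls summed over its CpGs. A read that covers several CpGs therefore counts once at each, and the number of separate molecules can be smaller. The body of ZNF274 carried 5158 and 4274 reads in WT 1 and WT 2, against 0 and 14 in ZNF274KO 1 and ZNF274KO 2. The level of a region (mCG) is the percentage of its calls that are methylated, and differences are in percentage points. An intermediate level may come from part of the cells or alleles being methylated or from each being methylated in part, which cannot be told apart here. Genome-wide mCG was 59.3% (WT 1), 60.4% (WT 2), 60.2% (ZNF274KO 1) and 58.4% (ZNF274KO 2).

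The short-arm stretch was sparsely methylated in WT and far more methylated in ZNF274KO, while the sum over all long-arm reads differed little. On the short arm the level was 22.9% in WT 1 and 22.96% in WT 2, against 59.8% in ZNF274KO 1 and 44.3% in ZNF274KO 2. The groups did not overlap, and the difference was 29.1 points between means of 22.9% ± 0.0150 and 52.1% ± 10.99 (SD, n = 2). On the long arm the sum of all reads gave 51.8% and 54.3% in WT against 61.3% and 55.4% in ZNF274KO, a difference of 5.27 points (53.0% ± 1.77 against 58.3% ± 4.17). Over both stretches the levels were 45.0%, 46.9%, 60.9% and 52.6% in the order WT 1, WT 2, ZNF274KO 1 and ZNF274KO 2, a difference of 10.9 points.

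The long-arm sum was set by a few kilobases of satellite DNA. Just after an assembly gap of 50000 bases, 66 CpGs between chr7:61967209 and 61970947 took 80.2 to 81.1% of all long-arm reads, with up to 33064 reads at 1 CpG. The sequence matched itself at 73.5% of bases when shifted by 340 bases and at 50.03% when shifted by 171, where the median shift gave 26.1%. Alpha satellite, the tandem repeat of human centromeres, has monomers of about the shorter length. Its level was 60.5% and 63.39% in WT and 64.5% and 60.4% in ZNF274KO, so the groups overlapped. Single CpGs of the printed stretch had widely different levels. The CpG at chr7:61968997 was intermediate and varied most between libraries, at 42.3%, 49.8%, 55.4% and 43.9% in the order WT 1, WT 2, ZNF274KO 1 and ZNF274KO 2. The CpG at chr7:61969143, with the most reads, was methylated in 92.0% and 92.9% of WT reads and in 92.0% and 90.6% of ZNF274KO reads. The CpG at chr7:61969078 was methylated in 6.95%, 7.54%, 10.6% and 7.17% in the same order.

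CpGs with more than 5 times the median depth of a library were therefore left out of the sums over arms, blocks and 50 kb bins, the CpG, strand and single-copy comparisons and the sums inside and outside islands that follow, but not of the values of tiles, genes, families and single islands. This kept 31852 of the 31986 CpGs and between 200334 and 241270 reads per library. The long-arm level was then 15.1% (WT 1), 15.3% (WT 2), 48.0% (ZNF274KO 1) and 34.8% (ZNF274KO 2), a difference of 26.2 points. The short-arm levels became 20.4%, 20.3%, 58.14% and 41.9%, a difference of 29.7 points. Without the deep CpGs the long arm was lower than the short arm in each of the 4 libraries, and the difference between groups was of similar size on both arms.

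**Figure D1:**
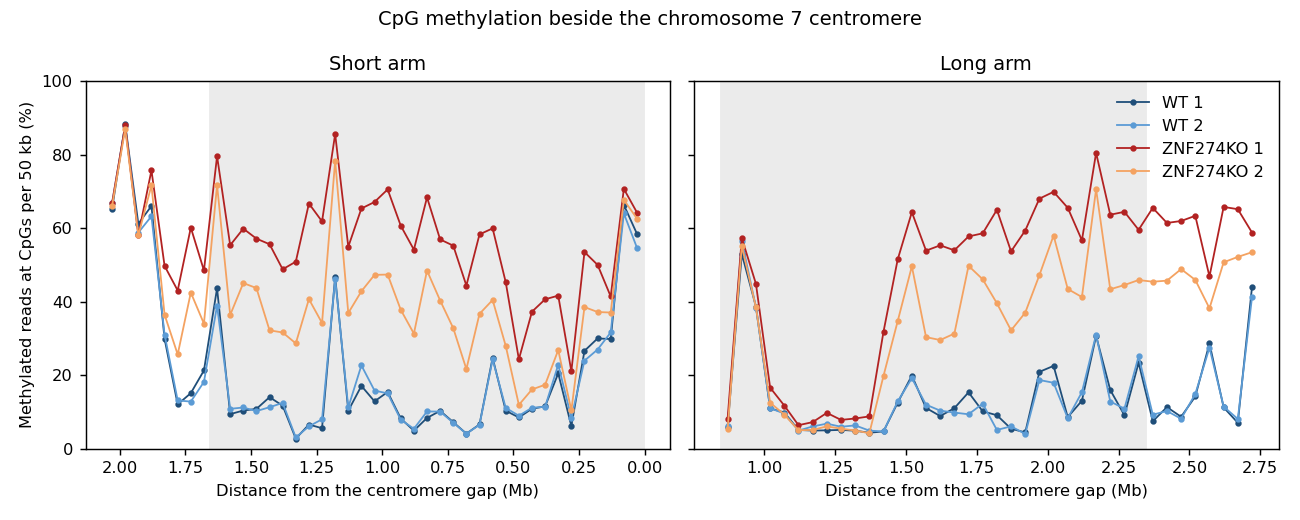
mCG level (%) of each library in bins of 50 kb, without CpGs over 5 times the median depth, against the distance (Mb) from the centromere gap of hg19, with the short arm on the left and the long arm on the right and the 2 stretches shaded. The WT lines lie close together, and in most shaded bins ZNF274KO 1 lies above ZNF274KO 2 and both above WT. The 4 libraries come together near the centromere and at the outer end of the short arm.

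The rise followed position in broad blocks, whose limits were chosen after the values were seen. From chr7:56400054 to 57549919, which holds ZNF479 and ZNF716, the levels were 17.5% (WT 1), 17.7% (WT 2), 62.8% (ZNF274KO 1) and 44.9% (ZNF274KO 2). From chr7:57550060 to 57949950 they were 19.4% and 19.3% in WT against 40.2% and 26.1% in ZNF274KO, so the WT level was about the same while the difference was 13.8 in place of 36.2 points. In the last 100 kb before the centromere gap (chr7:57950087-58049909) WT was itself highly methylated at 62.9% and 59.7%, against 67.8% and 65.4% in ZNF274KO.

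On the long arm the first 550 kb (chr7:61900006-62449822) hardly differed, with 14.9% and 15.5% in WT against 18.3% and 15.4% in ZNF274KO, and the groups overlapped. Within it, chr7:62050009-62449822 was at 6.27%, 6.999%, 9.57% and 6.64%, among the least methylated DNA of either arm. From chr7:62450084 to 63399770 the levels were 15.1% and 15.2% in WT and 59.9% and 42.3% in ZNF274KO. The step was sharp: the 50 kb bin from chr7:62400029 had 4.36% and 4.94% in WT and 8.81% and 4.23% in ZNF274KO, and the next bin 4.73% and 4.71% in WT and 31.9% and 19.8% in ZNF274KO. The sum over the flat block was raised by the 2 bins that follow the assembly gap, at 53.0% and 56.5% in WT from chr7:61967209 and at 38.6% and 38.4% from chr7:62000012, and the rest of the block was lower in WT than the block that rose.

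What the blocks held differed along with the rise. The flat long-arm block overlapped 0 annotated genes and had a median of 5.40 CpGs per kb and 36.8% GC over its 5 kb tiles, while the rising long-arm block overlapped 58 genes and had 10.2 CpGs per kb and 42.6% GC. The short-arm block with the large rise overlapped 76 genes and had 10.6 CpGs per kb and 44.2% GC. In the 2 blocks with a large rise, tiles with and without a gene had similar medians. Tiles that overlapped a gene had a median difference of 40.5 points (106 tiles) and tiles without a gene 37.8 points (124 tiles) in the first short-arm block, and 40.1 (72 tiles) and 37.5 points (103 tiles) in the rising long-arm block. In the short-arm block with the smaller rise, which had 7.40 CpGs per kb and 37.6% GC and thus a GC content near that of the flat block, the medians were 17.6 (16 tiles) and 12.6 points (64 tiles). The values describe these blocks only, and whether CpG density, duplication or gene content plays a part was not tested.

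The outer limits do not end the rise. Just inside the short-arm limit, the 50 kb bin from chr7:56400054 was at 43.6% and 38.9% in WT and 79.6% and 71.7% in ZNF274KO, and just outside, the bin from chr7:56350166 was at 21.3% and 18.2% against 48.5% and 34.0%. ZNF274KO 2 came close to WT at chr7:56200010, where the levels were 29.9%, 31.1%, 49.7% and 36.5% in library order. Just inside the long-arm limit, the bin from chr7:63350026 was at 23.4% and 25.2% in WT and 59.5% and 45.9% in ZNF274KO, and just outside, the bin from chr7:63400257 was at 7.49% and 9.27% against 65.5% and 45.4%. On the other side of the gene desert, chr7:61054336-61899950, which was not a member, was at 13.9% and 14.1% in WT and 15.4% and 14.0% in ZNF274KO.

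Of the 630 tiles of 5 kb, 606 had at least 20 reads in every library, all 330 of the short arm and 276 of the 300 of the long arm. Over these the median tile level was 7.07% (WT 1), 7.58% (WT 2), 54.1% (ZNF274KO 1) and 32.5% (ZNF274KO 2), whereas the median WT level of all 563538 tiles of the genome was 62.6%. In WT 1 and WT 2, 372 and 376 tiles were under 10% methylated (10.6% of all genome tiles by WT mean), and 40 and 38 were over 50%. In ZNF274KO 1 the counts were 62 and 351, and in ZNF274KO 2 they were 109 and 141. The median difference was 29.1 points (quartiles 7.69 and 43.3), against -0.58 points over all tiles of the genome.

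In 509 of the 606 tiles the lower ZNF274KO library exceeded the higher WT library, where 13.5% of all tiles of the genome did so. At an adjusted p under 0.05 in the edgeR quasi-likelihood test across all tiles, 373 were called higher (background 0.473%) and 0 lower (background 0.0131%), 225 of the higher ones on the short arm and 148 on the long arm. With limma 137 of these 606 tiles were called. Since the stretches were chosen for this contrast, nothing follows from these counts. None of the 101 tiles tested in the flat long-arm block and none of the 20 tiles before the centromere gap was called. In the 2 blocks with a large rise 203 of 230 and 148 of 175 were called, and 22 of 80 in the short-arm block with the smaller rise. The block limits were chosen after the values were seen, so these counts by block only restate that choice. The difference exceeded 30 points in 293 tiles, as it did in 0.261% of all tiles of the genome. A lower mean in ZNF274KO than in WT was found in 33 tiles, where the median difference over all tiles of the genome was itself negative.

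**Figure D2:**
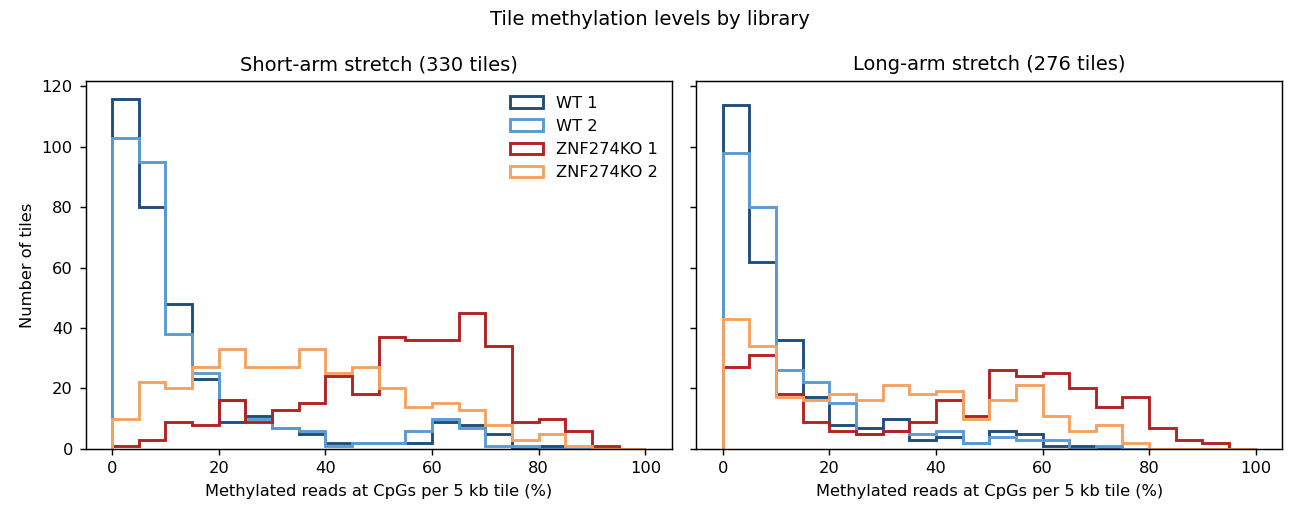
Number of 5 kb tiles by mCG level (%, in steps of 5) in each library, for the 330 short-arm and 276 long-arm tiles with at least 20 reads in every library. Most WT tiles are under 10%, the ZNF274KO 1 tiles of the short arm centre on a median of 57.1% and those of ZNF274KO 2 on 34.8%, and a low peak remains in ZNF274KO on the long arm.

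The 2 knockout libraries differed from each other more than the 2 WT libraries did. ZNF274KO 1 was above ZNF274KO 2 in 573 of the 606 tiles, and 66.5% of all tiles of the genome showed this order. The tile median of ZNF274KO 1 minus the WT mean was 38.9 points and that of ZNF274KO 2 minus the same WT mean was 17.4 points. In the short-arm bin from chr7:57600048, for example, ZNF274KO 2 was at 16.1% and ZNF274KO 1 at 37.3%, with WT at 10.9% and 11.16%. WT 2 was above WT 1 in 310 tiles.

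At single CpGs the change was both to intermediate and to high levels, and fewer CpGs reached high levels in ZNF274KO 2 than in ZNF274KO 1. Of the short-arm CpGs, 9876 were covered by 5 or more reads in each library, and of these 69.0% (WT 1) and 69.5% (WT 2) were under 20% methylated, against 17.6% (ZNF274KO 1) and 35.1% (ZNF274KO 2). Levels between 20 and 80% were found for 21.1% and 21.0% of these CpGs in WT and for 48.3% and 45.3% in ZNF274KO, and levels over 80% for 9.84% and 9.50% in WT and for 34.1% and 19.6% in ZNF274KO. Among 6183 long-arm CpGs the share under 20% was 78.3% and 77.9% in WT and 34.9% and 48.8% in ZNF274KO. The reads of both strands showed the same picture, with a short-arm difference of 29.9 points on the Watson strand and 29.4 points on the Crick strand.

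Much of this DNA exists in several copies, so that reads can be placed in the wrong one. For 14091 of the 31986 CpGs the surrounding 50 bases, read as converted sequence, occur once on the autosomes and X of hg19. The Y chromosome and the mitochondrial genome were not searched. Without the deep CpGs, short-arm CpGs with a single copy were at 20.3% and 19.9% in WT and 55.4% and 39.4% in ZNF274KO, and those with more copies at 20.6% and 20.7% against 61.2% and 44.6%. In the rising long-arm block the single-copy CpGs were at 15.9% and 16.1% in WT and 56.1% and 39.5% in ZNF274KO. The difference there was 31.8 points, against 39.2 points at CpGs with more copies. The rise was present at CpGs whose sequence occurs once in this count, and was smaller there. Copies that hg19 lacks, or that differ slightly, are not seen by the count, so reads may be misplaced at such CpGs too. On the long arm, 5596 CpGs counted as single-copy had 236108 to 284071 reads per library. Without the deep CpGs, 5566 of them had 42347 to 51793.

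ZNF479 (ENSG00000185177.8, chr7:57187321-57207571, minus strand) was nearly unmethylated in WT over most of its length. Its body of 154 CpGs was at 2.53% (WT 1) and 4.59% (WT 2) and at 65.8% (ZNF274KO 1) and 48.5% (ZNF274KO 2), a difference of 53.6 points between 3.56% ± 1.46 and 57.2% ± 12.3 (SD, n = 2). The first intron was at 1.12% and 3.02% against 70.2% and 48.0%, and the last intron at 4.15% and 5.0% against 77.7% and 66.3%. The coding part of the last exon, which encodes the fingers, was at 8.70% and 36.4% against 73.0% and 68.0%, from 7 CpGs with 33 to 63 reads per library. Around its start the gene followed its body: within 1 kb on either side, 12 CpGs were at 3.0% and 1.77% in WT and 52.1% and 34.5% in ZNF274KO. Within 300 bases of the start lay only 1 CpG, with 6 to 11 reads per library, so the start itself was hardly measured.

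ZNF716 (ENSG00000182111.9_6, chr7:57509883-57533265, plus strand) rose over its body and not at its start. The 200 CpGs of the body were at 6.99% and 7.46% in WT and 61.6% and 40.1% in ZNF274KO, a difference of 43.6 points between 7.22% ± 0.3334 and 50.9% ± 15.3. The first intron was at 4.88% and 6.20% against 57.5% and 38.4%, and the coding part of the last exon at 0.00% and 2.08% against 72.3% and 31.7%, from 6 CpGs. Within 1 kb of the start, 55 CpGs were at 17.1%, 16.2%, 15.5% and 16.3% in library order, and the groups overlapped. Within 300 bases, 15 CpGs were at 29.4% and 23.6% in WT and at 11.7% and 10.9% in ZNF274KO, which is lower in both knockout libraries.

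Over the 6 CpGs of the printed upstream sequence of ZNF716 the levels were 38.3% and 48.6% in WT and 36.4% and 9.09% in ZNF274KO, so ZNF274KO 1 was close to WT 1 there, from 22 to 55 reads per library. The CpGs within it differed. Its last 2 CpGs, 235 and 245 bases into the sequence (counted from 1), were methylated in 100% and 100% of reads in WT 1 and in 100% and 87.5% in WT 2. In ZNF274KO 1 both of these CpGs were at 25%, and in ZNF274KO 2 at 11.1% and 0.00%. The 3 CpGs at 130, 181 and 214 had 0 methylated reads in both WT libraries and between 9.09% and 66.7% in ZNF274KO. Each of these values rests on 3 to 11 reads, so single values are imprecise.

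**Figure D3:**
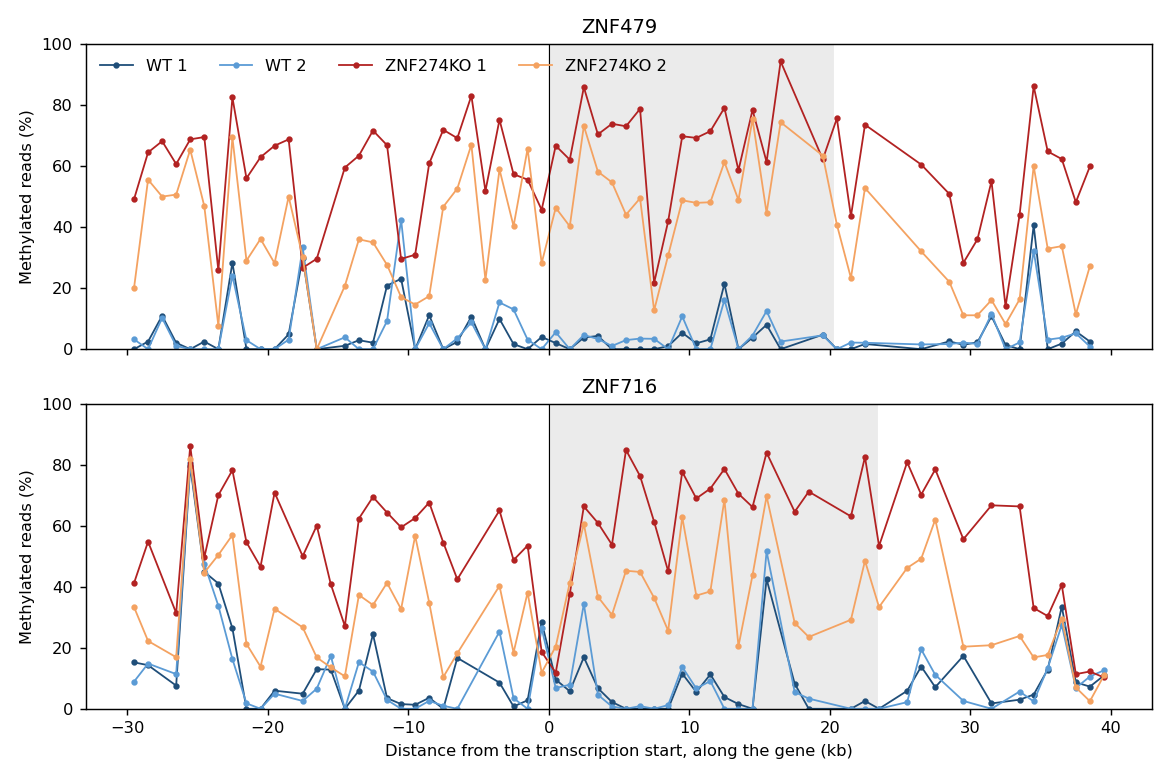
mCG level (%) per kb of each library against the distance (kb) from the transcription start of ZNF479 and ZNF716, read along the gene, with the gene body shaded and only kilobases with at least 20 reads in every library drawn. Both knockout libraries are above WT through most of both bodies, with a dip to 21.7% and 12.7% at 7.5 kb in ZNF479, and in the kb before the start of ZNF716 they fall below WT while at the start of ZNF479 they do not.

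The 3 zinc finger pseudogenes of the long arm were also low in WT. ZNF734P was at 13.3% and 15.3% in WT and at 83.0% and 69.5% in ZNF274KO, a difference of 62.0 points over 22 CpGs. ZNF733P was at 10.8% and 13.6% against 48.5% and 46.8%, over 52 CpGs. ZNF90P3, a processed copy, was at 10.9% and 17.3% against 47.1% and 20%, over 16 CpGs, so ZNF274KO 2 stood close to WT there. Only 4.55% of the CpGs of ZNF734P and 3.85% of those of ZNF733P have a single-copy sequence, and their reads may be shared with related genes.

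In all, 156 annotated genes overlapped the stretches, of which 114 are pseudogenes, 26 long noncoding RNAs and 2 protein-coding. Of the 120 with at least 20 reads in every library, 110 had both ZNF274KO libraries above both WT libraries, and 12.3% of such genes in the genome did. The other genes with 50 or more CpGs are nearly all pseudogenes and noncoding RNAs, and those with the largest rises are given here. GUSBP10, a copy of the beta-glucuronidase gene, was at 8.79% and 9.56% in WT and at 84.4% and 71.5% in ZNF274KO, a difference of 68.8 points. CICP24 on the long arm was at 10.6% and 11.5% against 77.2% and 68.3%, and CICP28 on the short arm at 11.1% and 7.18% against 73.6% and 66.8%. The noncoding RNA ENSG00000291021 was at 1.96% and 4.14% against 67.6% and 44.2%, and the pseudogene ENSG00000226401 at 15.0% and 11.25% against 73.3% and 57.2%, with few reads in the latter (80 to 147 per library).

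Families of copied genes are grouped here as chosen from the annotation with the values in view. Between chr7:57234907 and 57265479, beside ZNF479, lie 16 pseudogenes of mitochondrial genes, which are nuclear copies of mitochondrial DNA. Both knockout libraries were above both WT libraries in 110 of the 120 genes of the stretches with enough reads, and in 12.3% of such genes in the genome. They were so in all 15 mitochondrial copies with enough reads, with differences of 36.9 to 72.2 points. Together their 174 CpGs were at 11.98% and 12.7% in WT and at 70.5% and 51.9% in ZNF274KO. The printed MTCYBP29 stretch was at 2.198% and 0.00% in WT and at 87.9% and 57.8% in ZNF274KO. The VN1R family, pseudogenes of pheromone receptors with a total of 21 CpGs, was at 3.38% and 9.73% against 43.7% and 19.1%. Of its 4 members with enough reads, 3 had both knockout libraries above both WT libraries. The groups overlapped in VN1R34P, at 10.6%, 23.3%, 29.7% and 12.5% in library order over 7 CpGs. The SAPCD2P pseudogenes stood apart with 72.6% and 70.5% in WT and 87.2% and 78.4% in ZNF274KO, and so did SLC25A1P3, the only SLC25A1P pseudogene with CpGs here, with 66.4% and 68.0% against 89.4% and 83.4%.

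**Figure D4:**
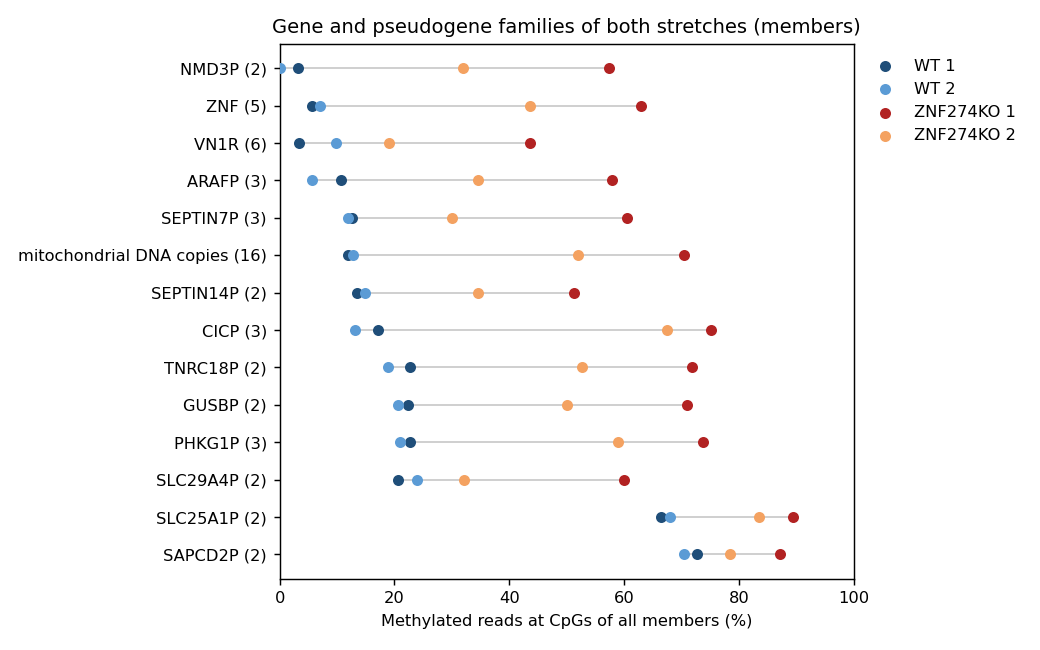
mCG level (%) of each library over all CpGs of each gene or pseudogene family of the stretches, with the number of annotated members in brackets (SLC25A1P rests on SLC25A1P3 alone) and grey lines joining the lowest to the highest library. The WT libraries lie under 25% in all families but SAPCD2P and SLC25A1P, and the knockout libraries lie to the right of both WT libraries in every family drawn.

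Several of these families have copies on both arms with similar levels. TNRC18P3 on the short arm was at 19.7% and 17.0% in WT and 74.3% and 52.7% in ZNF274KO, and TNRC18P2 on the long arm at 23.2% and 19.3% against 71.3% and 52.7%. SLC29A4P1 was at 18.9% and 21.6% against 59.0% and 32.9%, and its long-arm counterpart SLC29A4P2 at 21.2% and 24.6% against 60.3% and 31.8%. SEPTIN7P15 was at 6.34% and 10.6% against 59.6% and 24.1%, and SEPTIN7P4, one of its long-arm relatives, at 14.9% and 13.1% against 61.7% and 31.9%. Single-copy CpGs made up 3.61 to 27.3% of these 6 pseudogenes, so reads of one copy may have been counted at the other. SAPCD2P2 and SAPCD2P4, where 88.7% and 100% of CpGs are single-copy, differed from each other, at 76.2%, 76.8%, 85.4% and 79.0% and at 68.2%, 62.3%, 91.0% and 77.7% in library order.

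The tiles at the extremes, among those with at least 20 CpGs, show what kinds of DNA they hold. On the short arm the largest difference, 71.3 points, was in chr7:57250000-57254999, which holds MTND1P4 and MTND2P6 and was at 0.00% and 1.19% in WT and at 81.8% and 62.0% in ZNF274KO. The next, chr7:57240000-57244999 with MTND5P6, MTND6P29 and MTCYBP29, was at 5.68% and 6.68% against 82.3% and 62.2%. The third, chr7:57050000-57054999, is duplicated sequence in which 2.44% of CpGs are single-copy, and it was at 9.45% and 14.5% against 87.9% and 65.7%. On the long arm the largest were chr7:62785000-62789999 (74.3 points, but from 20 to 37 reads per library), chr7:63050000-63054999 (69.7 points) and chr7:62765000-62769999 (62.9 points), in all of which under 3% of CpGs are single-copy.

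Little difference was found in 3 neighbouring short-arm tiles that hold parts of a satellite array. From chr7:57545000 to 57559999 the pentamer GGAAT or its complement ATTCC occurs 260, 289 and 126 times per tile, where the median tile of the genome has 11 and 0.0295% of tiles have 100 or more. This is the repeat of classical human satellite DNA. The middle tile, chr7:57550060-57554981, has 164 CpGs and was at 12.9% and 9.72% in WT and at 11.23% and 9.31% in ZNF274KO, with a difference of -1.04 points. Its neighbours were at 16.1%, 16.4%, 24.6% and 15.6% and at 4.75%, 9.14%, 10.1% and 6.17% in library order. The array lies where the large short-arm rise gives way to the smaller one, across the limit chosen between these blocks, and whether it has a part in that was not tested.

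The other tiles with the lowest signed differences, which are falls, on the short arm were chr7:56655000-56659999 (23.5%, 17.8%, 26.8% and 8.23% in library order) and chr7:57960000-57964999 (71.9%, 69.8%, 69.5% and 70.0%). On the long arm they were chr7:62430000-62434999 (9.55%, 19.7%, 9.89% and 4.35%) and chr7:62220000-62224999 (16.4%, 22.3%, 15.4% and 12.2%) in the gene desert. The last, chr7:63360000-63364999, lies within the rising block and holds the start of LINC02848. It was at 25.7% and 24.9% in WT and at 19.2% and 20.8% in ZNF274KO, with 133 CpGs and 1018 to 1341 reads per library.

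CpG islands gave a more divided picture. Defined from sequence as 200 or more bases with at least 50% GC and an observed over expected CpG ratio of at least 0.6, 99 islands were found on the short arm and 73 on the long arm, of which 89 and 58 had at least 20 reads in every library. Both ZNF274KO libraries were above both WT libraries in 113 of these 147 islands (13.1% of such islands in the genome) and below in 10 (22.6% in the genome). Island CpGs were more methylated in WT than other CpGs of the same arm, at 37.7% and 39.0% against 18.4% and 18.0% on the short arm, and had smaller differences, 18.0 against 31.1 points. On the long arm the differences were 21.2 points in islands and 26.9 points outside.

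Among the islands with the largest rises were chr7:56503853-56504239 (8.07% and 11.3% in WT against 81.1% and 83.0% in ZNF274KO) within the noncoding RNA ENSG00000291184, and chr7:56781578-56781878 (0.00% and 0.980% against 84.1% and 53.4%), which overlaps no gene. In chr7:57537058-57537265 beyond the end of ZNF716, the levels were 4.17% and 10.5% in WT and 85.9% and 61.2% in ZNF274KO, and in chr7:62530278-62530478 they were 2.60% and 0.00% against 84.9% and 49.4%. In the order given, these islands hold 17, 14, 8 and 9 CpGs, of which 11.8%, 14.3%, 75% and 33.3% are single-copy. Over all 146125 islands found in this way in the genome the median WT level was 85.1%.

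The 5 islands with the largest falls lay within 500 bases of annotated gene starts. At LINC02848 and the noncoding RNA ENSG00000236299, whose first parts overlap on opposite strands, the island chr7:63360293-63360844 was at 38.5% and 37.1% in WT and at 3.15% and 5.34% in ZNF274KO, a difference of -33.5 points over 27 CpGs that all have single-copy sequence. The island next to it, chr7:63360890-63361573, which contains the printed stretch, was at 30.9% and 29.97% against 0.860% and 9.80%. The island across the start of ZNF716, chr7:57509810-57510012, was at 46.4% and 41.7% against 16.7% and 11.1%. The island chr7:62528415-62529112, which holds the annotated microRNA AC069285.1, was at 39.6% and 28.4% against 9.06% and 10.2%. In the fifth, chr7:57217946-57218381, which overlaps the pseudogene ENSG00000235095 at its start and the noncoding RNA ENSG00000286436, the levels were 29.2%, 47.6%, 29.1% and 17.9%, and the distance between the groups was small beside the spread within WT.

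Lower islands were counted by their distance from gene starts. Of 32 islands within 500 bases of an annotated start, 20 were higher and 8 lower in both knockout libraries, where the genome has 12.9% higher and 21.0% lower. Of 115 islands further away, 93 were higher and 2 lower, where the genome has 13.2% and 22.9%. A count of 8 of 32 lower islands is near the background share. A fall of over 20 points was found in 4 of the 147 islands of the stretches, all of them near a start, and in 283 of 146125 islands of the genome, 35 of them near a start. The difference between the 2 kinds of island in these stretches was not tested because the stretches were chosen by the same contrast.

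**Figure D5:**
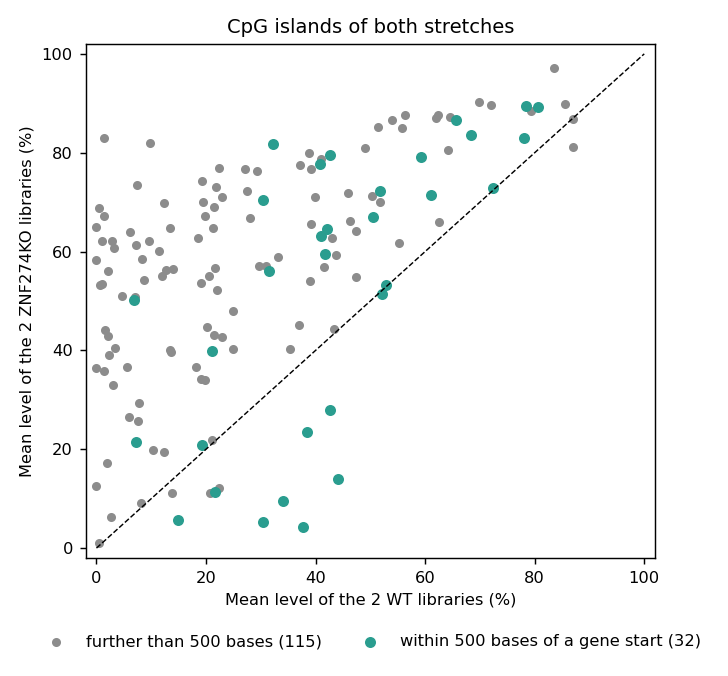
Mean mCG level (%) of the 2 ZNF274KO libraries against that of the 2 WT libraries for the 147 CpG islands of both stretches with at least 20 reads in every library, 32 of them within 500 bases of an annotated gene start (green). Most points lie above the dashed line of equal levels, and the 5 points with the largest falls are green.

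The zinc finger genes next to the long-arm stretch were compared as genes outside the rule, and they were chosen with earlier results of these data known. The 11 protein-coding zinc finger genes between chr7:63400257 and 65499527 were tested with edgeR over 19829 protein-coding gene bodies, of which 0.888% were called higher and 0.0303% lower. Of these 11, 4 were called higher and 0 lower, and the median difference was 7.20 points. ZNF735 was at 10.2% and 8.36% in WT and at 70.5% and 54.7% in ZNF274KO (edgeR quasi-likelihood test, Benjamini-Hochberg adjusted p = 2.03e-06), and ZNF679 at 9.35% and 9.36% against 68.9% and 56.0% (edgeR adjusted p = 1.89e-07). ZNF727 and ZNF722 were the other two. All 4 lie before chr7:63727309, nearest the stretch, and all were at 10.4% or less in both WT libraries.

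The other 7, from ZNF736 outwards, were not called and were at 54.5% or more in WT. Of these, ZNF736 (8.47 points), ZNF117 (7.20 points) and ZNF273 (7.01 points) had both ZNF274KO libraries above both WT libraries, and the other 4 had lower means in ZNF274KO. The largest falls were those of ZNF680, at 84.1% and 83.2% in WT and 80.2% and 81.1% in ZNF274KO (edgeR adjusted p = 0.686), and of ZNF92, at 70.1% and 70.0% against 68.1% and 66.4% (edgeR adjusted p = 0.773). The 22248 CpGs of the whole interval were at 57.6% and 57.2% in WT and at 70.9% and 66.2% in ZNF274KO.

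The share of all reads that fell on the 2 stretches, a measure that did not choose them, was 0.219% (WT 1), 0.213% (WT 2), 0.228% (ZNF274KO 1) and 0.229% (ZNF274KO 2). The groups did not overlap and differed by 0.0123 percentage points (p = 0.33 in an exact two-sided permutation test, the smallest value that 2 against 2 libraries can give). As shares of the reads of chromosome 7 alone the values were 3.73%, 3.77%, 3.85% and 3.86% in library order. Without the deep CpGs the shares of all reads were 0.0811%, 0.0787%, 0.0876% and 0.0874%. Its part in the levels was not tested.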

How the data were processed

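EM-seq libraries of 200 ng DNA were sequenced as 100-base paired ends by the authors. Their published methods give alignment to hg19 by Msuite2 v.2.2.0 with HISAT2, and the submitters' processing notes name HISAT2 and hg19. The deposited values are read counts, methylated and unmethylated on each strand, for every CpG. From them mCG was summed as methylated over all reads per library, in regions and in 5 kb tiles with at least 20 reads in every library. Whole-genome tests of tiles and of gene bodies with at least 5 CpGs used the edgeR 4.0.16 quasi-likelihood test on methylated and unmethylated counts with Benjamini-Hochberg adjustment (R 4.3.3), and were checked on simulated data. Depth was a median of 8 to 10 reads per CpG, so values of single CpGs are coarse. The members and all lists were chosen with earlier results of these data known. Named were all protein-coding and ZNF genes, the 5 other genes with 50 or more CpGs and the largest rise, the 3 largest and 3 lowest signed tile differences with at least 20 CpGs per stretch, and the 5 islands at either end, of which 1 is not reported here. Sequences and gene models are of GRCh37. Alternatives were the minimum reads, tile size, strand, depth limit, single-copy sequence, limma 3.58.1, leaving out a library and the replicate block. No sample was left out.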

Additional observations from a re-analysis of the deposited data

How the results depend on the processing

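Of 76 alternative values, 61 stayed, 15 moved and none reversed. A methylation difference stayed if it changed by less than the larger SD of the 2 groups. A count stayed if it was within 1.5 times the main count, and a read share difference if it kept its sign. Over both stretches the difference of 10.9 points became 27.5, 27.6 and 27.3 as a mean of tile levels with at least 20, 10 and 50 reads, 28.4 without deep CpGs, 28.1 without the satellite and 24.1 at single-copy CpGs without deep ones. The last 2 settings were chosen after seeing the data. With the deep CpGs kept, single-copy CpGs gave 8.27 points over both stretches and 3.44 on the long arm, where ZNF274KO 2 (66.9%) was below WT 2 (68.0%). On the long arm 5.27 points became 24.1, 24.4, 23.5, 26.2, 26.3 and 19.1 under the same settings, and 35.9 from chr7:62450084 on, a limit also chosen later. Tiles called numbered 137 with limma, where the cause was not tested, and 192 with 10 kb tiles, which are fewer by construction, against 373. Leaving out 1 library gave 6.72 to 15.0 points for both stretches, 21.3 to 36.9 for the short arm, 2.33 to 8.22 for the long arm, 298 to 425 tiles, 4 to 5 zinc finger gene bodies and a read share difference of 0.0096 to 0.0150 points. The long-arm sum and the sum over both changed by over 1.5 times without ZNF274KO 1 (2.33 and 6.72 points), and the long-arm sum also without ZNF274KO 2 (8.22 points). Replicate numbers do not pair the libraries (correlation of deviations -0.108), and the replicate block gave 422 tiles and 5 gene bodies. For the methylation differences and the read share it equals the main value by construction (10.9, 29.1, 5.27 and 0.0123 points). These values are among those counted as having stayed. The crossed pairing, also added later, gave 429 tiles and 4 gene bodies. A repeat-masked alternative was not run, since the reference used here marks no repeats.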
